A study of Homo sapiens with 4 samples.

Results

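The genes described here encode the SR splicing factors SRSF1, SRSF2, SRSF3, SRSF4, SRSF5, SRSF6, SRSF7, SRSF9, SRSF10 and SRSF11, 10 of the 63677 genes counted in each library. They were chosen by symbol, through the Ensembl gene identifier on a primary chromosome. The choice was made with earlier results of these data known, and its question names SRSF6 and SRSF7 for their fall. The p-values of SRSF6 and SRSF7 below are therefore no independent test. The libraries are poly(A) mRNA-seq from IMR90, a line of normal human fetal lung fibroblasts. Cells of isolates I90-10 and I90-79 received, with a lipid transfection reagent, either an siRNA against HMGB1 (HMGB1 knockdown, 2 libraries) or a non-targeting control siRNA (control, 2 libraries), and were harvested at 72 h. HMGB1 is an abundant DNA-bending chromatin protein that also binds RNA. The study's methods speak of 2 different siRNAs for IMR90 without saying which library received which, and each isolate gave 1 library per condition, so all means below are over n = 2. The labels name the isolates and not their donors, so p-values measure the spread between these libraries, which may be in part technical. The question was whether the lower SRSF6 and SRSF7 mRNA in HMGB1-knockdown cells belonged to a fall of the whole SR family or to some of its members.

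SR proteins carry an RNA-recognition motif, which binds short exonic sequences, and a domain rich in arginine and serine (RS domain), which contacts other splicing proteins. They help define exons, and several also act in mRNA export and translation. Kinases of the SRPK and CLK families phosphorylate the RS domain and so control entry into the nucleus and release from nuclear speckles. Many SR genes regulate their own level by including a "poison" exon with an early stop codon, which sends the transcript to nonsense-mediated decay (NMD).

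All 10 members have at least 1 annotated NMD transcript, against 47.1% of the 12816 tested protein-coding genes. SRSF7 has 6 among 12 transcripts, SRSF9 5 among 13 and SRSF6 1 among 6. The counts pool all exons of a gene, so a productive SR mRNA and its NMD form cannot be told apart in the values below. The exon found only in the NMD transcript of SRSF6, of 268 bases, lies wholly within the counted exons. It is shown because it is the annotated route to decay of that gene, with the first stop codon in the frame of the NMD transcript in capitals, beginning at base 150 of the exon.
SRSF6 NMD exon, hg19, chr20:42087793-42088060, plus strand: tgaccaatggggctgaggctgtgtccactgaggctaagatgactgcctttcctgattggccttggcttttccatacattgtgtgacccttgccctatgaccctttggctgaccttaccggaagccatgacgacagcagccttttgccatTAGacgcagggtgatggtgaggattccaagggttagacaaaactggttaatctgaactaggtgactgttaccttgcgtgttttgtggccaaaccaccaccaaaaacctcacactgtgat

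Total counts were between 29861687 and 35317010 per library, and the 10 members had between 1548 and 9989 reads each. Values are CPM, counts scaled to a common library size with TMM factors. HMGB1 stood at 181 and 237 CPM in control and at 15.96 and 18.86 CPM in HMGB1-knockdown libraries (I90-10 and I90-79). HMGB1 thus changed by −3.59 on the log2 scale (standard error 0.19, edgeR adjusted p = 0.0075), so the targeted mRNA followed the labels. All 9 fibroblast markers were detected, with summed levels of 18044 to 34226 CPM in control and 20589 to 32669 CPM in knockdown. With the isolate as a block, the fibroblast surface genes THY1 (−0.99) and PDGFRB (−0.68) were called lower and the matrix gene LUM higher (0.83, log2-fold changes), 2 and 1 of 9 beside 7.84% and 6.68% of all genes. With 1 RUVs factor of unwanted variation in DESeq2, 0 of the 9 were called lower and 4 higher, beside 5.40% and 4.96% of all genes. In that fit THY1 (−0.37) and PDGFRB (−0.23) were not called. The 12 measured markers of epithelial, endothelial, muscle and immune cells summed to 3.26 to 6.06 CPM in control and 5.80 to 7.65 CPM in knockdown, and CDH5, KRT5 and CD3E were at 0 in all 4 libraries. Of the 12, 5 were expressed enough to test. VWF, an endothelial gene, was the 1 of these 5 called higher with the block, beside 6.68% of all genes. VWF went from 1.36 and 0.923 CPM in control to 4.16 and 2.59 CPM in knockdown, and its part in the SR values was not tested. With bulk RNA, fewer expressing cells and less RNA per cell cannot be told apart.

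In the edgeR fits, the 10 SR mRNAs did not move together. SRSF2 and SRSF6 were lower in both isolates, and SRSF7 was lower by less. SRSF3 (−0.21) and SRSF11 (−0.15) were lower by less again. SRSF1, SRSF5, SRSF9 and SRSF10 had log2-fold changes between −0.05 and 0.06. SRSF4 lay slightly above control in both isolates. Calls required an adjusted p under 0.01 and a log2-fold change beyond 0.6 in either direction, over all 15398 genes tested. Without a term for the isolate, edgeR's quasi-likelihood test called 0 members in either direction, where 0.136% of all genes were called lower and 0.0649% higher. SRSF2 and SRSF6 had unadjusted p-values under 0.05, as did 4359 of all genes. DESeq2 without the isolate term called SRSF2 and SRSF6 lower and 0 members higher, beside 817 of the 15398 genes called lower and 725 higher. With the isolate as a block, 2 of the 10 members, SRSF2 and SRSF6, were called lower and 0 higher, beside 7.84% of all genes called lower and 6.68% higher. DESeq2 with 1 RUVs factor of unwanted variation, the kind of correction the study used, also called SRSF2 and SRSF6 lower and 0 members higher, against 5.40% and 4.96% of all genes. In that fit every member except SRSF4 (0.14) had a negative log2-fold change. SRSF3 (−0.31), SRSF11 (−0.30) and SRSF10 (−0.18) lay further below 0 than in the edgeR fits, without a call. The directions of the members thus depended on the fit.

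**Figure D1:**
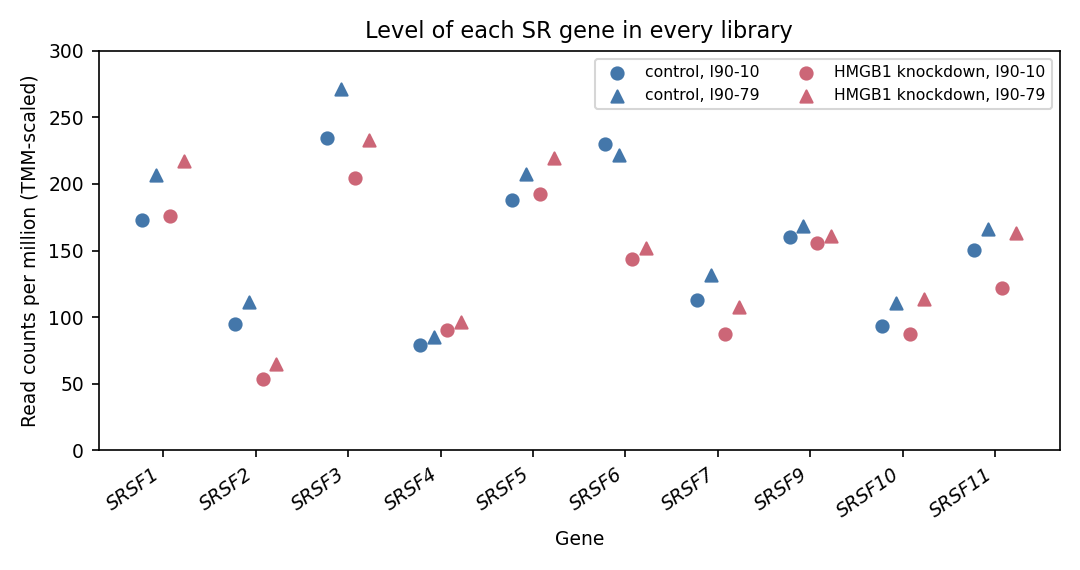
CPM of each SR gene (vertical axis) in the 4 libraries, with control in blue, HMGB1 knockdown in red, circles for I90-10 and triangles for I90-79. The knockdown points of SRSF2 (53.6 and 65.0 CPM) and SRSF6 (144 and 152 CPM) sit well below the control points, whereas those of SRSF1, SRSF5, SRSF9, SRSF10 and SRSF11 interleave with them.

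SRSF6, which binds exonic enhancers in many transcripts and is known from skin and wound-healing work, was at 230 and 221 CPM in control and at 144 and 152 CPM in knockdown libraries. Both knockdown values lay below both control values, and the gap exceeded the spread inside either group (226 ± 6.27 against 148 ± 5.82 CPM, SD, n = 2). The gene (ENSG00000124193) lies on chromosome 20 from 42086568 to 42092245 on the plus strand of hg19. Knockdown changed it by −0.61 on the log2 scale (standard error 0.11), a fall of 34.5%, with an edgeR adjusted p of 0.0392 without and 0.0021 with the isolate block. The fall by isolate was −0.68 in I90-10 and −0.54 in I90-79 on the log2 scale, so the estimate sat just past the 0.6 threshold while I90-79 alone did not reach it. With the block, its 95% interval ran from −0.83 to −0.39. Of its 50-base windows, 14.4% also occur in other annotated genes. The part that occurs in other counted genes is 5.49%, chiefly in the pseudogene SRSF6P2, which itself had 1 to 6 reads per library.

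SRSF2 (SC35) showed the deepest fall of the family. It stood at 95.2 and 111 CPM in control and at 53.6 and 65.0 CPM in knockdown libraries. The groups did not overlap, and each isolate fell by nearly the same amount, −0.83 in I90-10 and −0.78 in I90-79. The log2-fold change was −0.80 (standard error 0.15), with an edgeR adjusted p of 0.0412 without the block and 6.09e-04 with it (95% interval −1.02 to −0.58). SRSF2 (ENSG00000161547) lies on chromosome 17 from 74730197 to 74733456, on the minus strand. There, 36.7% of its exonic bases are shared with MFSD11, a gene of the opposite strand that encodes a predicted membrane transporter. The strand setting of the count is not given in the sources used here, and reads from the shared bases cannot be assigned without strand. MFSD11, looked up after the values of SRSF2 were seen, was at 21.8 CPM in both control libraries and at 35.8 and 39.2 CPM in knockdown. Its log2-fold change of 0.78 (edgeR adjusted p = 0.0282, and 0.0013 with the block) went the opposite way to that of SRSF2.

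SRSF7 (9G8), a factor with a zinc knuckle that also acts in mRNA export and polyadenylation, was at 113 and 131 CPM in control and at 87.7 and 108 CPM in knockdown libraries. The groups did not overlap, but the gap between the nearest values was narrow, from 108 to 113 CPM. Each isolate fell, by −0.36 in I90-10 and −0.29 in I90-79. The log2-fold change was −0.32 (standard error 0.15), a fall of 19.9%, with an edgeR adjusted p of 0.237, and 0.031 with the block (95% interval −0.54 to −0.11). With the RUVs factor it was −0.45 (adjusted p = 0.0182), and in DESeq2 with the isolate block −0.32 (adjusted p = 0.0707). SRSF7 did not reach the 0.6 threshold in any of these fits. The gene (ENSG00000115875) lies on chromosome 2 from 38970741 to 38978636 on the minus strand, and none of its 50-base windows occurs in another gene (0.00%).

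SRSF3 (SRp20), the smallest SR protein and a partner of the export receptor NXF1, was at 235 and 271 CPM in control and at 205 and 233 CPM in knockdown. The groups were kept apart only narrowly, by 233 against 235 CPM. Its log2-fold change was −0.21 (standard error 0.14, edgeR adjusted p = 0.386, and 0.121 with the block). The blocked interval, −0.42 to 0.0041, held 0.

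SRSF4 (SRp75), with the longest RS domain of the classic SR proteins, was at 78.8 and 85.1 CPM in control and at 90.7 and 96.3 CPM in knockdown. Here the knockdown libraries lay above the control libraries, in both isolates by a similar amount (0.20 and 0.18). Its log2-fold change of 0.19 (standard error 0.11) had an edgeR adjusted p of 0.320, and 0.158 with the block.

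SRSF1 (SF2/ASF), the prototype of the family, was at 173 and 207 CPM in control and at 176 and 217 CPM in knockdown. The libraries of one isolate resembled each other more than those of one condition. Its log2-fold change was 0.05 (edgeR adjusted p = 0.878), with a blocked interval of −0.17 to 0.26. Of its 50-base windows, 30.4% also occur in other genes, chiefly a gene without a name that overlaps its locus and had at most 1 read per library. SRSF5 (SRp40) was at 188 and 208 CPM in control and at 193 and 219 CPM in knockdown, a log2-fold change of 0.06 (adjusted p = 0.808, blocked interval −0.15 to 0.27). With the RUVs factor the estimates of SRSF1 and SRSF5 changed sign to −0.10 and −0.03, neither past the test.

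SRSF9 (SRp30c), which has a short RS domain, was at 160 and 168 CPM in control and at 156 and 161 CPM in knockdown. Its log2-fold change was −0.05 (edgeR adjusted p = 0.801, blocked interval −0.26 to 0.16). SRSF10 (SRp38), known as a splicing repressor when dephosphorylated, was at 93.2 and 110 CPM in control and at 87.0 and 114 CPM in knockdown. It was the member whose isolates moved in opposite directions, −0.10 in I90-10 and 0.04 in I90-79. Its log2-fold change was −0.02 (adjusted p = 0.953, blocked interval −0.25 to 0.19). SRSF11 (p54), an SR-related factor, was at 150 and 167 CPM in control and at 122 and 164 CPM in knockdown. Its lower mean came from 1 knockdown library, since I90-10 changed by −0.30 and I90-79 by −0.03. The log2-fold change of −0.15 had an adjusted p of 0.615 and a blocked interval of −0.40 to 0.08.

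**Figure D2:**
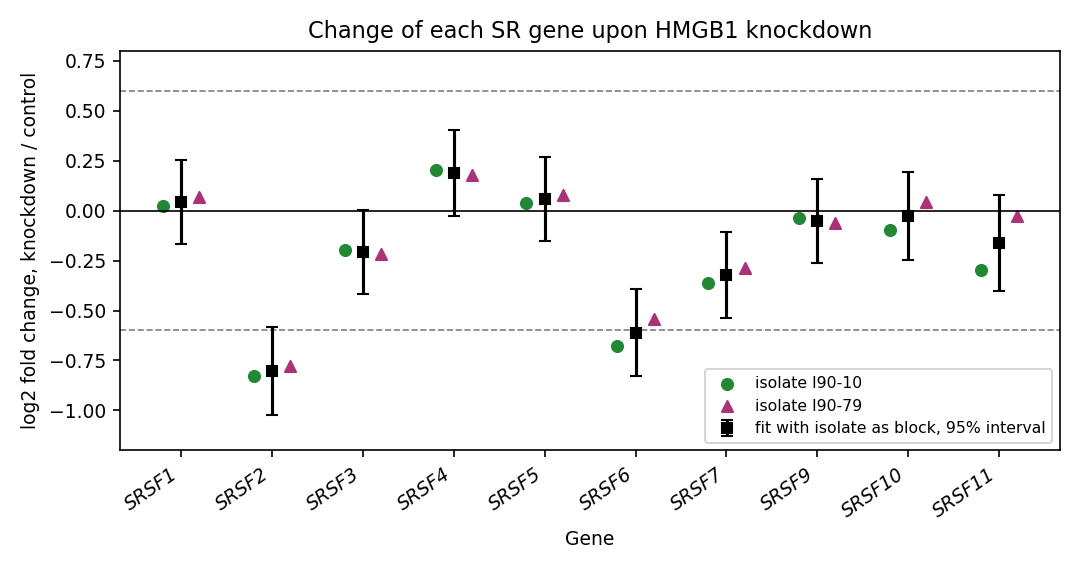
log2-fold change of each SR gene, HMGB1 knockdown over control (vertical axis). Black squares with bars are the edgeR estimates with the isolate as block and their 95% intervals, green circles and purple triangles are the isolates I90-10 and I90-79, and dashed lines mark 0.6 in either direction. SRSF2 (−0.80) and SRSF6 (−0.61) sit at or beyond the lower line, SRSF7 (−0.32) sits between, and the others lie nearer to 0.

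Across the family, 6 members were lower in both isolates, 3 were higher in both and 1 went both ways. Of all genes tested, 39.4% were lower and 38.9% higher in both isolates. In 4 members (SRSF2, SRSF3, SRSF6, SRSF7) both knockdown libraries lay below both control libraries, and in 1 (SRSF4) both lay above. Among all genes tested these shares were 30.2% and 29.8%. The median log2-fold change of the members was −0.10, against −0.0054 over all genes. It moved to −0.24 with the RUVs factor, to −0.26 without the knockdown library of I90-79 (replicate 2) and to 0.0069 without that of I90-10 (replicate 1). With the block, the 95% interval lay wholly above −0.6 for 8 of the 10 members, SRSF7 included, the exceptions being SRSF2 and SRSF6. In the fit without it this held for 7, since the wider interval of SRSF7 then reached past −0.6. A fall as large as the threshold was thus outside the blocked interval of the other 8 members. Of these, SRSF7 had an interval wholly below 0, and the intervals of the other 7 held 0. The intervals are those of the edgeR fits only. With the RUVs factor, for which no interval was computed, SRSF7 was at −0.45 (standard error 0.15) and SRSF11 at −0.30 (standard error 0.16). The exact permutation test of a single gene on 2 against 2 libraries cannot give a two-sided p below 0.333, and was not used.

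**Figure D3:**
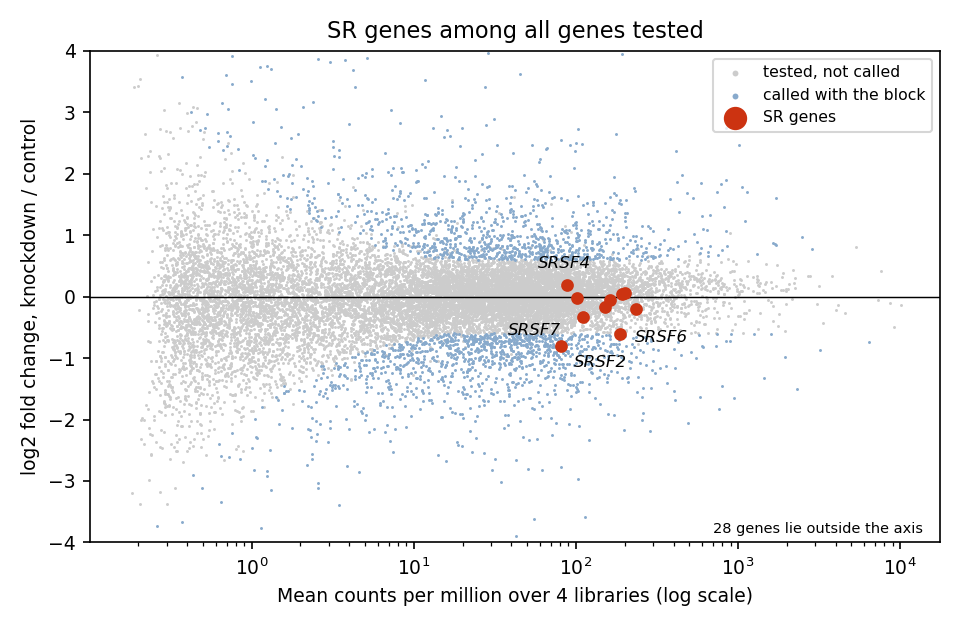
Every gene tested, by mean CPM over the 4 libraries (horizontal axis, log scale) and log2-fold change with the isolate as block (vertical axis). Blue points passed the call with the block, red points are the 10 SR genes, and 28 genes beyond 4 in either direction are not drawn. The SR genes lie among the well-expressed genes, between the 82.2th and 95.2th percentile of level, and 2 of them, SRSF2 and SRSF6, fall within the lower band of called genes.

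Per kilobase of counted exon, the order of the members changed between conditions. Levels and shares of different members compare only loosely. Of the exonic bases, 36.7% in SRSF2 and 9.91% in SRSF1 overlap another gene. The 30.4% of 50-base windows that SRSF1 shares with other genes are chiefly those of the gene that overlaps its locus. In control, SRSF6 (57.2 ± 1.59 RPKM, SD, n = 2) and SRSF1 (56.9 ± 7.13 RPKM) were highest and overlapped in range, followed by SRSF3 at 47.9, SRSF9 at 43.8, SRSF5 at 36.9, SRSF2 at 34.2 and SRSF7 at 30.2 RPKM. SRSF4 at 25.5, SRSF11 at 18.7 and SRSF10 at 9.90 RPKM closed the order. The ranges of SRSF3 and SRSF9, of SRSF5 and SRSF2, and of SRSF2 and SRSF7 overlapped, so their order was not resolved. In knockdown libraries SRSF1 was alone at the top (58.8 ± 8.65 RPKM), while SRSF6 (37.5 ± 1.47 RPKM) stood below SRSF5, in a group with SRSF9, SRSF3 and SRSF5 in which each range overlapped the next. SRSF2 (19.7 ± 2.66 RPKM) stood below SRSF4 and SRSF7, to a level that overlapped that of SRSF11.

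Summed over the family, the level was 343 and 379 RPKM in control and 296 and 340 RPKM in knockdown, for I90-10 and I90-79. It was lower in both isolates, but the knockdown sum of I90-79 nearly reached the control sum of I90-10. The make-up of the pool shifted more clearly than its size. SRSF6 supplied 14.8% to 16.99% of the summed RPKM in control and 11.3% to 12.3% in knockdown. For SRSF2 the share was 9.20% to 9.74% in control and 6.0% to 6.3% in knockdown. SRSF1 made up 15.1% to 16.3% in control and 17.8% to 19.1% in knockdown, and SRSF4 7.0% to 7.2% and then 8.8% to 9.5%. Shares are bound to each other, so the larger shares of SRSF1 and SRSF4 follow in part from the lower levels of SRSF2 and SRSF6. As a ratio of CPM within a library, SRSF6 to SRSF1 was 1.33 and 1.07 in control and 0.817 and 0.701 in knockdown. The ratio of SRSF2 to SRSF1 was 0.549 and 0.538 in control and 0.305 and 0.300 in knockdown, nearly the same in both isolates. These ratios do not depend on the library scaling.

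**Figure D4:**
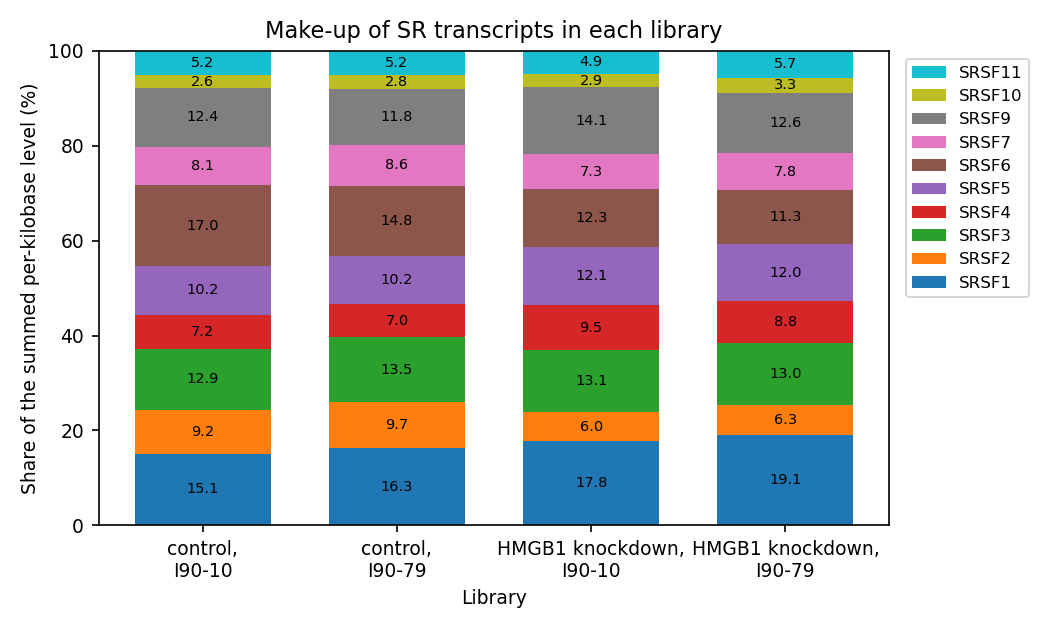
Share of each SR gene in the summed RPKM of the 10 genes (vertical axis, %), 1 bar per library, with the share printed in each segment. SRSF6 (brown) and SRSF2 (orange) take smaller segments in both knockdown libraries, and the segments of SRSF1, SRSF4 and SRSF5 are larger.

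Close relatives of the family were measured too. TRA2B, an SR-like splicing activator with RS domains at both ends, was at 168 and 192 CPM in control and at 134 and 160 CPM in knockdown, a log2-fold change of −0.29 (edgeR adjusted p = 0.256, and 0.0423 with the block). Both knockdown libraries lay below both control libraries, as for 30.2% of all genes. The size of the change was close to that of SRSF7. Its paralog TRA2A had −0.24 (adjusted p = 0.265) and SREK1, an SR-related regulator, −0.27 (adjusted p = 0.40). SRSF12 was at about 0.5 CPM and had 0.36. SRSF8 was not analysed here. None of the 4 was called in either direction, with or without the block. Of all genes, 7.84% were called lower and 6.68% higher with the block, and 0.136% and 0.0649% without it.

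Of the 11 kinases and import factors that act on SR proteins, 10 were expressed enough to test. In 7 of them both knockdown libraries lay below both control libraries and in 2 above, beside 30.2% and 29.8% of all genes. Their median log2-fold change was −0.46 (all genes −0.0054). With the block, 3 were called lower and 0 higher, against 7.84% and 6.68% of all genes, and without it 0 were called, though 7 had an unadjusted p under 0.05, as did 4359 of the 15398 genes tested. With the RUVs factor 4 were called lower and 0 higher, beside 5.40% and 4.96% of all genes. SRPK2, a cytoplasmic SR protein kinase, was at 69.3 and 58.7 CPM in control and at 35.1 and 37.3 CPM in knockdown. The log2-fold change was −0.82 (standard error 0.13, edgeR adjusted p = 0.0296, and 0.0013 with the block). CLK4, a nuclear SR kinase, was at 12.3 CPM in both control libraries and at 5.89 and 8.04 CPM in knockdown (log2-fold change −0.82, adjusted p = 0.0772, and 0.0079 with the block). PRPF4B, a spliceosome-bound kinase, was at 95.1 and 104 CPM and then at 55.7 and 74.5 CPM (log2-fold change −0.61, adjusted p = 0.0880, and 0.0034 with the block). CLK3 went the other way, from 45.4 and 51.4 CPM in control to 68.8 and 70.7 CPM in knockdown, and its log2-fold change of 0.53 (adjusted p = 0.0578, and 0.0053 with the block) did not reach 0.6. CLK2 and TNPO3, the importin of SR proteins, had 0.03 and 0.14.

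Other splicing genes were spread around 0. Of 28 RS-domain partners, 2 were called lower with the block (7.14%, beside 7.84% of all genes) and 0 higher (6.68% of all genes), and their median was −0.04. With the RUVs factor 3 of the 28 were called lower and 0 higher, beside 5.40% and 4.96% of all genes. SRRM1, a coactivator that bridges SR proteins on exons, was at 86.7 and 87.3 CPM in control and at 38.6 and 40.6 CPM in knockdown, with a log2-fold change of −1.14 (edgeR adjusted p = 0.0119, and 1.59e-04 with the block). U2AF2, which binds the polypyrimidine tract at 3′ splice sites, had −0.77 (adjusted p = 0.0301, and 7.88e-04 with the block). RSRC1, also an RS protein, had 0.59 without a call. Among 40 core spliceosome genes, 15 lay above control in both knockdown libraries and 8 below, where 29.8% and 30.2% of all genes did so. The median was 0.12, and 0.03 with the RUVs factor. SNRPC, a U1 snRNP protein, was called lower with the block (−0.95) and SNRNP200, the U5 helicase, higher (0.63). This was 1 gene each of 40, beside 7.84% and 6.68% of all genes, and SNRPB had 0.54 without a call. With the RUVs factor 2 of the 40 were called lower and 0 higher, beside 5.40% and 4.96% of all genes. In that fit SNRNP200 (0.58) was not called.

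The decay pathway that removes poison-exon transcripts was represented by 14 tested NMD factors. Their median log2-fold change was −0.14, with 1 called lower (7.14%, beside 7.84% of all genes) and 0 higher (6.68% of all genes) with the block. That gene was SMG8, a regulator of the NMD kinase SMG1, which was at 32.4 and 40.3 CPM in control and at 15.1 and 15.3 CPM in knockdown (log2-fold change −1.26, edgeR adjusted p = 0.0175, and 2.61e-04 with the block). SMG9, its partner, had 0.47 and was not called.

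**Figure D5:**
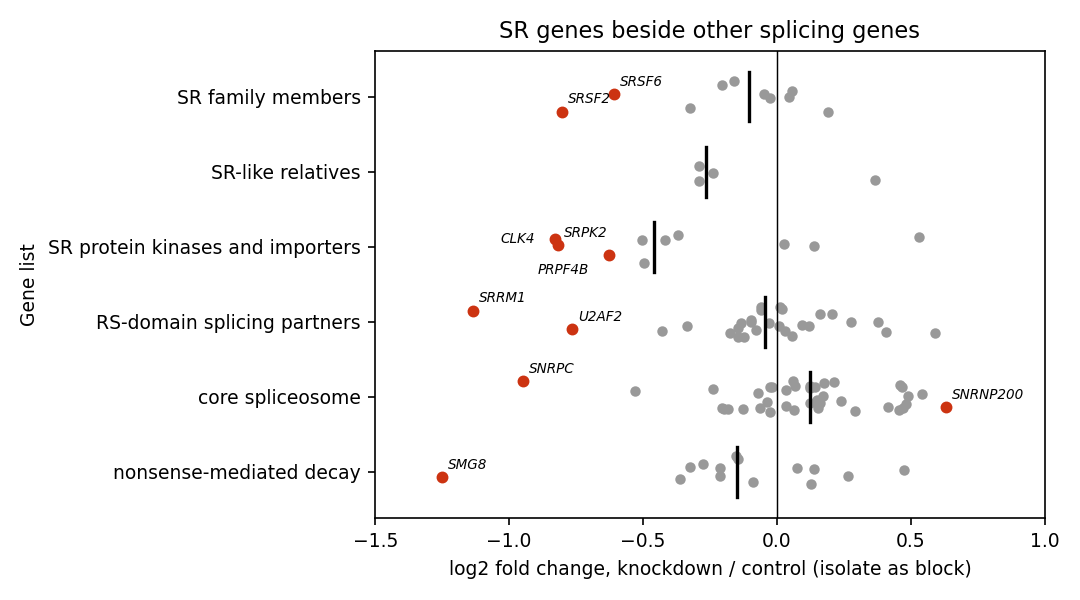
log2-fold change with the isolate as block (horizontal axis) of each tested gene in 6 lists. Each point is 1 gene, red points with names passed the call, and black bars are list medians. The kinase and importer list has the lowest median (−0.46), and in the SR list SRSF2 and SRSF6 stand apart from the other 8 members.

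Of 16 proliferation markers, 7 had a negative and 9 a positive log2-fold change, with a median of 0.08, which turned to −0.19 with the RUVs factor. Their summed level was 794 to 1427 CPM in control and 919 to 1126 CPM in knockdown, so the groups overlapped. With the block PCNA was called lower (−1.01 without and −0.99 with the block) and TYMS higher (0.62), beside 7.84% and 6.68% of all genes, and MCM2 had −0.59. With the RUVs factor 4 of the 16 were called lower and 0 higher, beside 5.40% and 4.96% of all genes. The part of proliferation in the SR values was not tested.

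The 3′ UTRs of the members were read for the word GCAGTT, which had come out of an earlier search for short words in these same libraries, so the counts below are a description and support nothing. Sequences of the siRNAs are not given in the sources used here. Of 12556 tested genes with a 3′ UTR of at least 100 bases, 37.9% hold the word on the transcribed strand, at 0.286 copies per kilobase over all. SRSF6 holds 4 copies in 3180 bases, SRSF2 2 in 2046, SRSF3 2 in 3611, SRSF10 3 in 6795, SRSF7 1 in 1534, SRSF11 1 in 2247 and SRSF1 1 in 4487. SRSF4, SRSF5 and SRSF9, whose 3′ UTRs are short (667, 544 and 347 bases), hold 0. Per kilobase, SRSF6 (1.26) and SRSF2 (0.978) had the most copies of the 10 members. Sites are shown only for SRSF6, SRSF2 and SRSF7, picked for their lower mRNA levels, with 11 bases on each side and the word in capitals. Those of SRSF1, SRSF3, SRSF10 and SRSF11 are not shown. SRSF6 site 4 lies outside the counted exons, and the sites of SRSF2 overlap.
SRSF6 site 1, hg19, chr20:42089741-42089768, plus strand: ttcctacttagGCAGTTactcttccatg
SRSF6 site 2, hg19, chr20:42090330-42090357, plus strand: cattattttgtGCAGTTaatcaaatttg
SRSF6 site 3, hg19, chr20:42090976-42091003, plus strand: gagttgaaattGCAGTTtgagaagtgaa
SRSF6 site 4, hg19, chr20:42092682-42092709, plus strand: agtagtagtctGCAGTTtgctttaatac
SRSF2 site 1, hg19, chr17:74730626-74730653, minus strand: gtgcactaggcGCAGTTgtgtagcagtt
SRSF2 site 2, hg19, chr17:74730615-74730642, minus strand: gcagttgtgtaGCAGTTgagtaatgctg
SRSF7 site 1, hg19, chr2:38971326-38971353, minus strand: agctaggttttGCAGTTcccaaccacaa
A match of the word is not a binding site, and whether it bears on the lower levels of SRSF6, SRSF2 or SRSF7 was not tested.

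The genes most like SRSF6 across the 4 libraries, by the root mean square difference of centred log2 CPM among 9323 genes with at least 10 CPM on average, were DTWD1 (0.0120), TAB2 (0.0132) and APOL6 (0.0183). TAB2, an adaptor of the TAK1 kinase, was at 121 and 114 CPM in control and at 75.4 and 78.6 CPM in knockdown. For SRSF7 they were TARDBP (0.0116), HNRNPU (0.0127) and ZNF841 (0.0159). TARDBP and HNRNPU encode RNA-binding proteins. TARDBP was at 155 and 177 CPM in control and at 121 and 148 CPM in knockdown, and HNRNPU at 490 and 557 and then at 375 and 464 CPM, the same order of libraries as in SRSF7. With 4 libraries many genes share such an order, and the likeness is a description.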

How the data were processed

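The authors made the deposited counts from TruSeq poly(A) libraries, aligned with STAR to hg19 and counted per Ensembl gene with featureCounts over uniquely mapped reads. Versions, strand setting and annotation release are not given in the sources used here. The members and gene lists were chosen with earlier results of these data known. Identifiers were matched to symbols through the reference tables. Genes were filtered with filterByExpr, scaled by TMM and tested with edgeR 4.0.16 (quasi-likelihood, Benjamini-Hochberg adjustment over 15398 genes). Calls used the study's thresholds, adjusted p under 0.01 and log2-fold change beyond 0.6. The same isolate was used in both conditions, and same-numbered libraries deviated together from their group means (correlation 0.46 over the genes tested), so the isolate numbers pair the libraries and a fit with this block stands beside results it changes. DESeq2 1.42.0, alone and with 1 RUVs factor, DESeq2 size factors, other filters and leaving out each library were the alternatives. RPKM was computed from CPM and the exon length in the deposited files, which is the union of exons. The pipeline was tested on simulated counts. These held no isolate effect and less spread than the fit without the block found, so they checked the code and not the calls above. NMD exons and 3′ UTR sites were read from the hg19 genome with GENCODE annotation lifted to that build. Named genes were all members and relatives, those called and the 3 smallest p-values in each other list, and the 3 nearest profiles of SRSF6 and SRSF7. Some items that this rule would name are not reported here. CLK4 and PRPF4B, like others called with the block alone, and CLK2, TNPO3 and MFSD11, were named after their values were seen.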

Additional observations from a re-analysis of the deposited data

How the results depend on the processing

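With 2 libraries per group, the calls changed with the test, the filter, the block and the threshold, while the value of SRSF6 moved little. The SRSF6 log2-fold change was −0.60 without a filter on low counts, −0.61 with DESeq2, with DESeq2 and 1 RUVs factor, with the replicate block in edgeR or DESeq2, and at an adjusted p under 0.05, and was called under each. SRSF2 was called with it, so the number of members called lower was 2 under these 6 alternatives and 0 with DESeq2 size factors or a minimum of 10 counts. The share of all genes called at an adjusted p under 0.05 is not given here, so the 2 members at that threshold cannot be read against it. Over all genes, the calls went from 21 lower and 10 higher to 1275 and 1118 without a filter, 817 and 725 with DESeq2, 831 and 764 with RUVs, 1207 and 1028 with the replicate block in edgeR and 1091 and 967 with it in DESeq2, and to 16 and 6 with the minimum of 10 counts. Leaving out 1 control library gave 181 and 118 (replicate 1) or 337 and 305 (replicate 2), and leaving out either knockdown library gave 0 and 0. The cause was not tested. With any single library removed, SRSF6 stayed between −0.65 and −0.57, SRSF2 between −0.94 and −0.67, SRSF7 between −0.47 and −0.18, and 0 members were called. HMGB1 stayed between −3.77 and −3.38 and was no longer called without either knockdown library (adjusted p up to 0.0487).

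The median of the members was −0.24 with the RUVs factor and −0.26 to 0.0069 with 1 library left out, the highest without knockdown replicate 1 and the lowest without knockdown replicate 2. The sign of members near 0 changed. SRSF1 was −0.10 and SRSF5 −0.0254 with the RUVs factor, and with 1 library left out they ranged from −0.11 to 0.19 and from −0.0346 to 0.15, negative without knockdown replicate 2 or control replicate 1. SRSF10 ranged from −0.22 to 0.16, positive without knockdown replicate 1 or control replicate 2, and SRSF11 from −0.37 to 0.0445, positive without knockdown replicate 1. No other member's direction changed under the alternatives run, and SRSF4 was positive in all of them.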

Other observations

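SRSF2 had its own nearest profiles, looked up after its values were seen. They were REX1BD (root mean square difference 0.0212), CANX (0.0240) and ADSS2 (0.0457). CANX, the endoplasmic reticulum chaperone calnexin, was at 835 and 1023 CPM in control and at 483 and 580 CPM in knockdown, a log2-fold change of −0.81.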
